A study of Mus musculus with 8 samples.

Results

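The 10 genes described here mark or build the first blood and vessel cells of the mouse, and were followed in single whole embryos at embryonic day 6.75: Gata1, Gata2, Runx1, Tal1, Lmo2, Etv2, Kdr, Hba-x, Hbb-y and Hbb-bh1. They were taken by gene symbol, and all 10 were found among the 21182 genes of the expression table. The 8 embryos, all of C57BL/6 background, were 4 with the genotype Control and 4 with the genotype Tet1/2/3 TKO, a triple knockout of the TET enzymes. RNA of each embryo was amplified and sequenced singly, and the labels give no litter, sex, sire or targeting construct. The value of a gene in an embryo is its RPKM, a read number scaled by the length of the gene and by the reads of the library. Fewer cells of a type and less RNA per cell cannot be told apart in such bulk RNA.

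The yolk sac forms the first blood from mesoderm that leaves the primitive streak. Early in this path, cells switch on Kdr, the VEGF receptor also called Flk1, and Etv2, an ETS transcription factor required for both blood and endothelium. Tal1, Lmo2, Gata1 and Gata2 encode partners of shared DNA-binding complexes, Runx1 encodes the factor that later makes definitive blood stem cells from endothelium, and primitive red cells fill with the embryonic globins Hba-x, Hbb-y and Hbb-bh1. The TET enzymes oxidise methylcytosine, which sits mainly at CpG, a C followed by a G.

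Because CpG is where TET enzymes act, the 250 bases upstream of the start site are shown for some members. They are Etv2, Gata1 and Kdr, detected in every embryo, and Hba-x and Hbb-y, listed at 0. RefSeq (GRCm38.p6) gave such a window for 8 of the 10 members; Lmo2 and Hbb-bh1 had no entry. Capitals mark CpG, and each line reads 5′ to 3′ toward the start site.
Etv2, chr7:30635853-30636102, minus strand: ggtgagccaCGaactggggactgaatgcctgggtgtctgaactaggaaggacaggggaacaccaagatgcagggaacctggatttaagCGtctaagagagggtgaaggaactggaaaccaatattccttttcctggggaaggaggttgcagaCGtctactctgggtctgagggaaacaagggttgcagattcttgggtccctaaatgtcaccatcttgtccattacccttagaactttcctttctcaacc
Gata1, chrX:7967911-7968160, minus strand: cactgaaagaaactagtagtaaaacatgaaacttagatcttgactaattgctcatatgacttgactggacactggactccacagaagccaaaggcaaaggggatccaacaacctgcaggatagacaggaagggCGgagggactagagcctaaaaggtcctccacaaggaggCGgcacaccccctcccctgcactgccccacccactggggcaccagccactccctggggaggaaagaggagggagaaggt
Kdr, chr5:75978456-75978705, minus strand: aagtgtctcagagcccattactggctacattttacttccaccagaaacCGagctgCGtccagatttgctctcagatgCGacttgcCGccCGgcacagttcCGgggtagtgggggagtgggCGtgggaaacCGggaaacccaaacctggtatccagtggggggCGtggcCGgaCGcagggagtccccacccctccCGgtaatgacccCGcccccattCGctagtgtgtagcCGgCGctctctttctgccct
Hba-x, chr11:32276350-32276599, plus strand: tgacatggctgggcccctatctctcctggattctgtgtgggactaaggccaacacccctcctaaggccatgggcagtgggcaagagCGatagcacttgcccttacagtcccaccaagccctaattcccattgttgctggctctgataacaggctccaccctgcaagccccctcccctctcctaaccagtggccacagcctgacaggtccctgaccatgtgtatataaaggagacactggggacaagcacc
Hbb-y, chr7:103853208-103853457, minus strand: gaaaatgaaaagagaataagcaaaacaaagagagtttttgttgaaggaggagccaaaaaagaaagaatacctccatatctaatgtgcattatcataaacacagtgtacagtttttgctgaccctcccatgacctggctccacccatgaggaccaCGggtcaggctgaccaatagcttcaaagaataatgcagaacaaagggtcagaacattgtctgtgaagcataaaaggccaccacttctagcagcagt

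CpG number and RNA level did not rank these members alike. The window of Etv2 held 3 CpG and that of Gata1 2, close to the globin genes Hba-x and Hbb-y with 1 each, listed at 0, although Etv2 and Gata1 had the highest mean levels of the 10. The window of Kdr held 16 CpG, and Kdr was among the lowest members detected. Tal1, the detected member with the lowest mean, had 6 and 16 CpG in its 2 windows. Gata2, with 22 and 24 CpG in its 2 windows, and Runx1, with 2 in its distal and 27 in its proximal window, had intermediate levels. Of all 32851 windows, 25.4% held at least 16 CpG and 81.2% at least 2. Motif letters were searched on both strands of each window. TGATAA, which GATA factors bind, was found once in Hba-x and once in Hbb-y, and in 7.94% of all windows. CCACCC, letters that KLF factors bind, occurred once each in Gata1, Kdr, Hba-x and Hbb-y, and in 28.1% of all windows. AGATAA, also bound by GATA factors and unable to match at the same place as TGATAA, was found among members once, in 1 of the 2 windows of Tal1, and in 9.99% of all windows. The letters CCAAT, bound by NF-Y, were in windows of Gata2, Runx1, Etv2 and Hbb-y, and in 33.8% of all windows. These counts describe letters in a reference of another build than the mm9 named for the files, and no DNA methylation was measured here.

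Read totals, estimated from the spacing of low RPKM values, were 12380000 to 16420000 in Control and 9900000 to 18960000 in TKO-labelled embryos. Tet1 was at 4.93 to 5.76 RPKM in Control and at 9.21 to 15.3 RPKM in TKO-labelled embryos, Tet2 at 0.444 to 0.850 and 0.598 to 0.993 RPKM, and Tet3 at 1.73 to 2.08 and 1.14 to 1.68 RPKM. The Tet1 level goes against a loss of its transcript, so the embryos are called TKO-labelled; a gene total cannot show whether targeted exons are missing. Every epiblast and visceral endoderm marker was above 0 in every embryo. Of the 10 trophoblast markers, Tpbpa was above 0 in 5 embryos, Prl2c2 in 2, and the others in all 8. Decidua markers, from the surrounding maternal tissue, (8 genes, each above 0 in at least 1 embryo) had a summed level of 3.82 to 554 RPKM in Control and 20.8 to 453 RPKM in TKO-labelled embryos. Their lowest sums were in Control replicate 2 and in TKO-labelled replicates 2 and 1. TKO-labelled replicate 2 also stood apart by its mesoderm genes, with Mesp1, a factor of nascent mesoderm, at 13.9 RPKM against at most 0.892 RPKM in the other 7 embryos.

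Ordered by their means, the members are described in 4 tiers of level per length. The order and the neighbours compared came from these same values, so the p-values describe and do not test the tiers. Over 8 embryos Gata1 averaged 4.86 ± 1.73 RPKM, Etv2 4.10 ± 1.19 RPKM and Gata2 3.48 ± 2.03 RPKM (SD, n = 8). Neighbours in this tier did not differ beyond their spread (exact two-sided sign-flip permutation p = 0.477 for Gata1 and Etv2, and p = 0.555 for Etv2 and Gata2). Runx1, at 1.61 ± 0.71 RPKM, lay below Gata2 in 8 of 8 embryos (exact permutation p = 0.00781), and its level could not be told from that of Lmo2, at 1.38 ± 0.35 RPKM (exact permutation p = 0.375). Kdr, at 0.249 ± 0.200 RPKM, lay below Lmo2 in 8 of 8 embryos (exact permutation p = 0.00781, the smallest that 8 embryos allow in this test). Tal1, at 0.133 ± 0.064 RPKM, was below Kdr in 4 of 8 embryos (exact permutation p = 0.188). The 3 embryonic globins were listed at 0 in all 8 embryos.

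**Figure D1:**
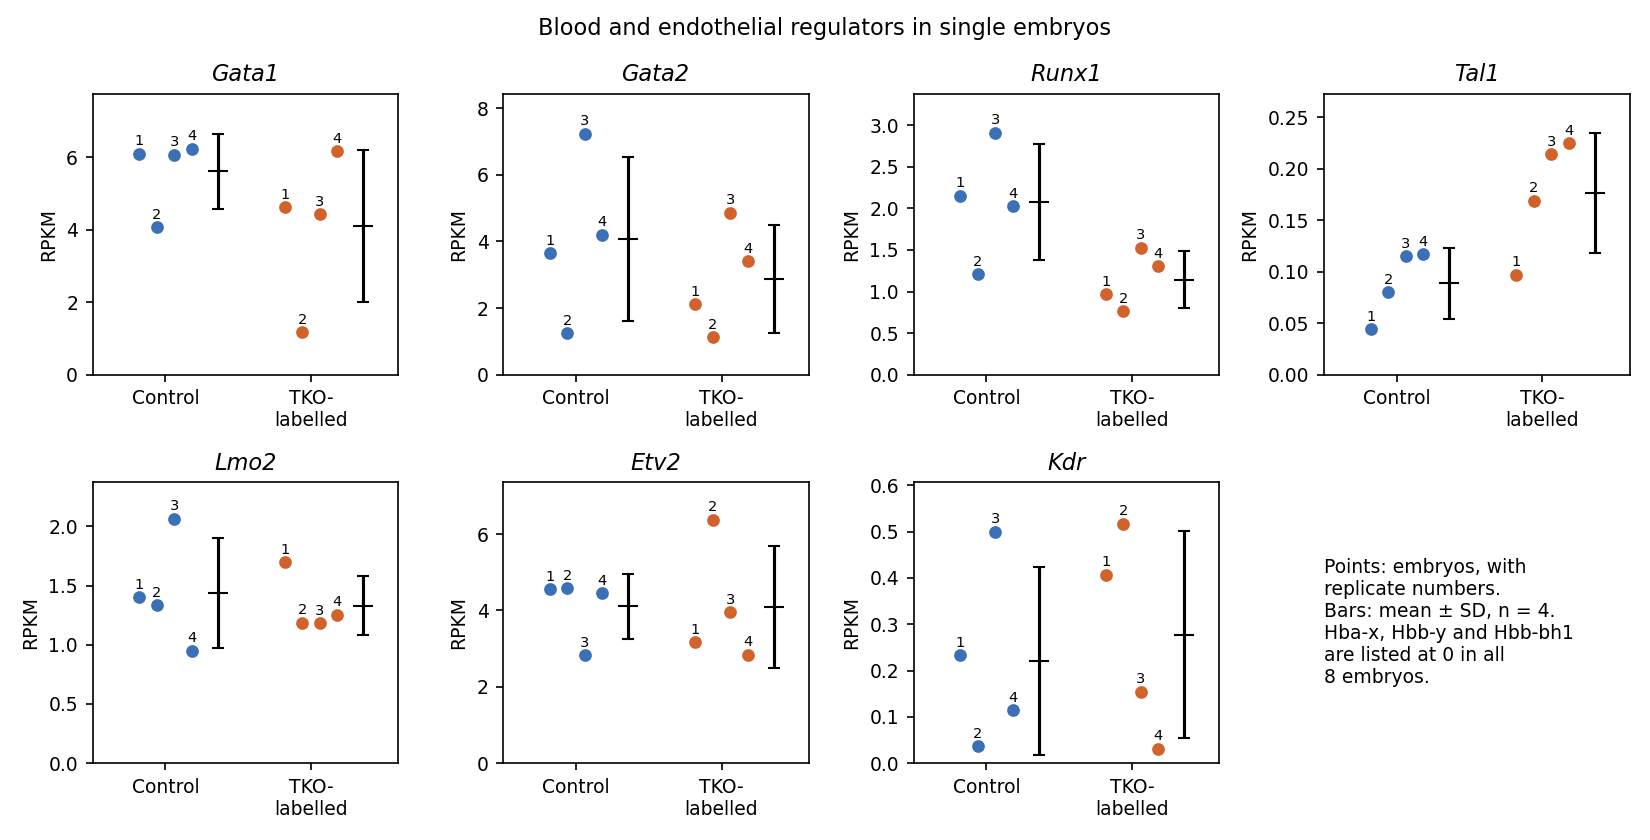
RPKM (vertical axes, each from 0) of the 7 detected members in 4 Control and 4 TKO-labelled embryos; points are embryos with their replicate number, bars the mean and SD. The groups overlap for all 7 genes, and TKO-labelled replicate 2 is lowest for Gata1 (1.17 RPKM) and highest for Etv2 (6.38 RPKM).

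None of the 10 members passed the threshold between groups. Of these, 5 reached 1 RPKM in 4 or more embryos and entered limma, a linear model fitted across 10451 genes; 0 of these 5 passed a Benjamini-Hochberg adjusted p of 0.05, against 0.00957% of all genes tested. At an unadjusted p under 0.05 there was 1, Runx1, against 17.5% of all genes in either direction and 3.6% lower in TKO-labelled embryos. The groups overlapped for all 5, whereas they did not for 9.41% of tested genes. For the 2 members with lower levels, Tal1 and Kdr, an exact permutation over all 70 assignments of the embryos was used. Neither reached 0.05, against 2.89% of the detected genes that missed the filter, and the groups did not overlap in the same 2.89%. The 5 tested members all had a negative log2 difference, with a median of -0.35, while that of all tested genes was 0.09, with 33.5% of them negative. Across all genes 1448 had higher and 376 lower values at an unadjusted p under 0.05, or 79.4% higher, but 839 and 673, or 55.5% higher, after median-ratio scaling.

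Etv2, the ETS factor at the head of the path, was present in every embryo. Control replicates 1 to 4 had 4.56, 4.59, 2.83 and 4.45 RPKM, and TKO-labelled replicates 1 to 4 had 3.17, 6.38, 3.95 and 2.84 RPKM. The highest value belonged to TKO-labelled replicate 2 and the others of that group lay inside the Control range. Group means were 4.11 ± 0.86 and 4.09 ± 1.60 RPKM (SD, n = 4), a difference of -0.04 on the log2(RPKM + 1) scale (95% confidence interval -0.50 to 0.43, limma adjusted p = 0.945). The interval does not show equal levels. In the embryo with the highest Etv2 the streak gene T was at 34.0 RPKM and Mixl1 at 48.3 RPKM, each the highest of the 8. Across the 8 embryos Etv2 followed the mean of the 12 nascent mesoderm genes with Pearson r = 0.75 (exact permutation p = 0.0275) and Spearman rho = 0.74 (exact permutation p = 0.0458). Without the 2 embryos farthest in that mean, TKO-labelled replicates 2 and 3, r was 0.44, so the relation rests on them; after centring each group it was 0.91. Adjusted over the 28 relations computed, of 7 members with 4 lists, its p was 0.128.

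Kdr, the receptor that marks the first vessel and blood progenitors, rested on few reads in 3 embryos and on more in the other 5. It had 0.233, 0.037, 0.500 and 0.115 RPKM in Control and 0.407, 0.517, 0.154 and 0.031 RPKM in TKO-labelled embryos. At the estimated read totals, and for the longest annotated transcript, these values amount to about 22.7, 3.27, 36.7 and 9.72 reads in Control and 23.9, 43.4, 17.3 and 2.15 reads in TKO-labelled embryos. Control replicates 2 and 4 and TKO-labelled replicate 4 thus had under 10 reads. Means were 0.221 ± 0.203 and 0.277 ± 0.224 RPKM (SD, n = 4; exact two-sided permutation p = 0.743). TKO-labelled replicate 2, with most Kdr, was also highest in Etv2 and Mesp1, but Control replicate 3, nearly as high in Kdr, had the lowest Etv2 of the 8.

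Tal1, the basic helix-loop-helix factor that specifies blood, had at most about 17.1 reads in any embryo. Control replicates 1 to 4 had 0.044, 0.080, 0.115 and 0.117 RPKM and TKO-labelled replicates 1 to 4 had 0.097, 0.169, 0.214 and 0.225 RPKM. For the longest annotated transcript these amount to about 3.04, 5.03, 6.00 and 7.03 reads in Control and 4.05, 10.1, 17.1 and 11.1 reads in TKO-labelled embryos. Of the TKO-labelled embryos 3 lay above all Control embryos and replicate 1 inside their range. The means of 0.089 ± 0.034 and 0.176 ± 0.058 RPKM (SD, n = 4) gave an exact two-sided permutation p of 0.0857. Without TKO-labelled replicate 1 the exact permutation p was 0.0286, the smallest that 4 embryos against 3 allow. That value follows from leaving out the only TKO-labelled embryo inside the Control range, so it is no added evidence. Leaving out any other embryo gave an exact permutation p of 0.0857 to 0.114. Tal1 followed the parietal endoderm list with r = 0.86 (exact permutation p = 0.00950, adjusted over 28 relations 0.0665) and rho = 0.81 (exact permutation p = 0.0218), with r = 0.81 without TKO-labelled replicates 2 and 3 and 0.69 after centring each group on its mean. That list summed to 101 to 201 RPKM in Control and 168 to 581 RPKM in TKO-labelled embryos; its part in the Tal1 values was not tested.

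Lmo2, the LIM-only adaptor that bridges Tal1 and GATA factors, had overlapping groups. Control embryos had 1.40, 1.34, 2.06 and 0.951 RPKM and TKO-labelled embryos 1.70, 1.19, 1.19 and 1.25 RPKM. All TKO-labelled values lay inside the Control range. The log2 difference was -0.05 (95% confidence interval -0.40 to 0.29, limma adjusted p = 0.887). The scaffold and E-protein partners of this complex were far more abundant per length: Ldb1, the scaffold, ranged from 8.86 to 16.9 RPKM, and Tcf12, an E protein, from 7.69 to 10.1 RPKM over the 8 embryos. Lyl1, the closest relative of Tal1, was at 0 to 0.168 RPKM.

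Gata1, the master factor of red cells and platelets, was detected in every embryo. Control embryos had 6.09, 4.07, 6.07 and 6.23 RPKM and TKO-labelled embryos 4.63, 1.17, 4.43 and 6.17 RPKM. Control values were tight apart from replicate 2, and TKO-labelled replicate 2 lay far below all others. The means of 5.62 ± 1.03 and 4.10 ± 2.10 RPKM (SD, n = 4) differed by -0.49 on the log2 scale (95% confidence interval -1.19 to 0.21, limma adjusted p = 0.444), and by -0.12 without TKO-labelled replicate 2. The 10 trophoblast genes summed to 63.9 RPKM in that embryo and to 74.4 to 197 RPKM in the other 7, although Cdx2, a trophoblast factor, was highest there, at 2.69 RPKM; their part in the Gata1 value was not tested. Gata1 ran opposite to the nascent mesoderm list with r = -0.96 (exact permutation p = 0.00561, adjusted over 28 relations 0.0665) and rho = -0.79 (exact permutation p = 0.0279). Without TKO-labelled replicates 2 and 3, r was -0.65, and after centring each group it was -0.95. Of the red cell genes, Epor, the erythropoietin receptor, was at 0.595 to 1.98 RPKM, Klf1, an erythroid factor, at 0.066 to 0.725 RPKM, and Alas2, the heme enzyme of red cells, at 0.213 to 0.946 RPKM. Zfpm1, the cofactor FOG1 of GATA factors, was at 1.58 to 3.88 RPKM.

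Gata2, a factor of blood progenitors that trophoblast and uterus also express, varied more between embryos than between groups. Control replicates 1 to 4 had 3.66, 1.24, 7.23 and 4.202 RPKM, and TKO-labelled replicates 1 to 4 had 2.11, 1.13, 4.86 and 3.41 RPKM. Control replicate 2 and TKO-labelled replicate 2 were lowest and Control replicate 3 was highest. The log2 difference was -0.35 (95% confidence interval -1.21 to 0.52, limma adjusted p = 0.672). Of the 28 relations, that of Gata2 with the decidua list had the highest r, 0.98 (exact permutation p = 9.92e-05, adjusted 0.00278), with rho = 0.95 (exact permutation p = 0.00114). It was 0.97 without Control replicate 2 and TKO-labelled replicate 2, and 0.98 after centring each group on its mean. Gata2 also followed the trophoblast list, with r = 0.81 (exact permutation p = 0.0167, adjusted 0.0935), rho = 0.88 (exact permutation p = 0.00724), and r = 0.73 without TKO-labelled replicates 2 and 3 and 0.80 after centring. With the decidua list mean as a covariate, added after the data were seen, the log2 difference was 0.0031 (95% confidence interval -0.32 to 0.32, limma adjusted p = 0.995). Gata2 and this covariate ran nearly together in these same embryos, so the fit cannot show what decidua contributes. The part of decidua or trophoblast in the Gata2 values was not tested.

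Runx1 had the log2 difference farthest from 0 among the 5 tested members, just past that of Gata1. It encodes the core-binding factor that blood stem cells need. Control embryos had 2.15, 1.21, 2.91 and 2.03 RPKM and TKO-labelled embryos 0.971, 0.764, 1.53 and 1.30 RPKM. TKO-labelled replicates 1 and 2 lay below every Control embryo, and the other two above Control replicate 2 alone. The means of 2.07 ± 0.70 and 1.14 ± 0.34 RPKM (SD, n = 4) gave a log2 difference of -0.51 (95% confidence interval -0.92 to -0.09), a limma p of 0.0215 and an adjusted p of 0.225. The exact permutation p was 0.0857. Runx1 also followed the decidua list (r = 0.85, exact permutation p = 0.00811, adjusted 0.0665; rho = 0.86, exact permutation p = 0.0107; r = 0.90 without the replicates 2 of both groups and 0.97 after centring). With the trophoblast list Runx1 had r = 0.66 (exact permutation p = 0.0751, adjusted 0.234) and rho = 0.81 (exact permutation p = 0.0218). That r was 0.75 without TKO-labelled replicates 2 and 3, and 0.77 after centring. With the decidua covariate the log2 difference of Runx1 was -0.36 (limma adjusted p = 0.220). The part of decidua or trophoblast in the Runx1 values was not tested.

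**Figure D2:**
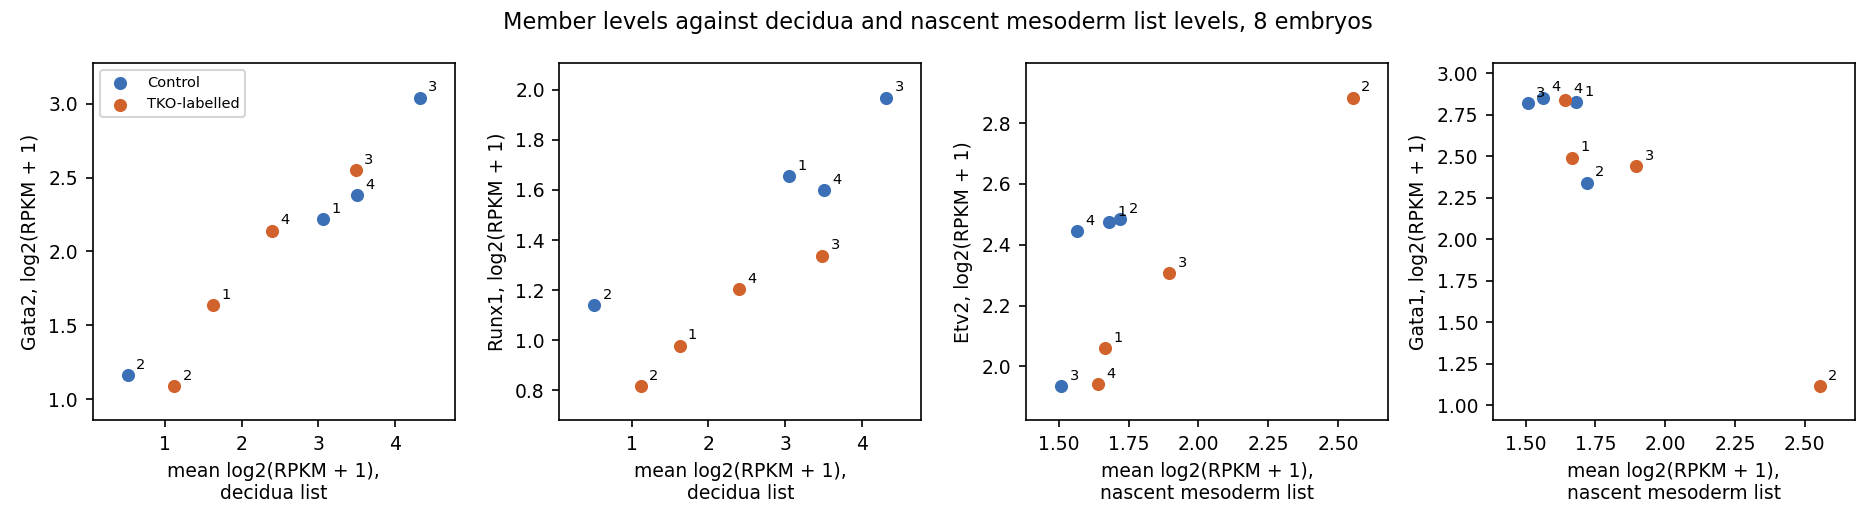
Level of a member (vertical axis, log2(RPKM + 1)) against the mean log2(RPKM + 1) of a marker list (horizontal axis) in 8 embryos, numbered by replicate. Gata2 and Runx1 are higher in embryos with a higher decidua list; for Etv2 and Gata1 the embryo far to the right is TKO-labelled replicate 2.

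Some genes of formed endothelium, picked after their values were seen, were lowest where the decidua markers were low. Cdh5, the junction protein VE-cadherin, had 1.49, 0.034, 3.92 and 1.47 RPKM in Control and 0.177, 0.106, 3.00 and 0.854 RPKM in TKO-labelled embryos. Emcn, the surface sialomucin endomucin, had 2.44, 0.046, 4.22 and 1.67 RPKM and 0.414, 0.048, 1.47 and 0.990 RPKM. Both were near 0 in replicates 2 of either group, where Prl8a2, a prolactin of the decidua, was at 1.32 and 11.8 RPKM against 21.3 to 354 RPKM elsewhere. Etv2 in those embryos was at 4.59 and 6.38 RPKM, the highest of each group. Other genes of the same list of 10 did not follow this order: Ramp2 was at 15.0 RPKM in TKO-labelled replicate 2, and Egfl7, a secreted endothelial factor, ranged from 13.4 to 20.7 RPKM with its highest value in TKO-labelled replicate 1. The part of maternal endothelium in these values was not tested.

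**Figure D3:**
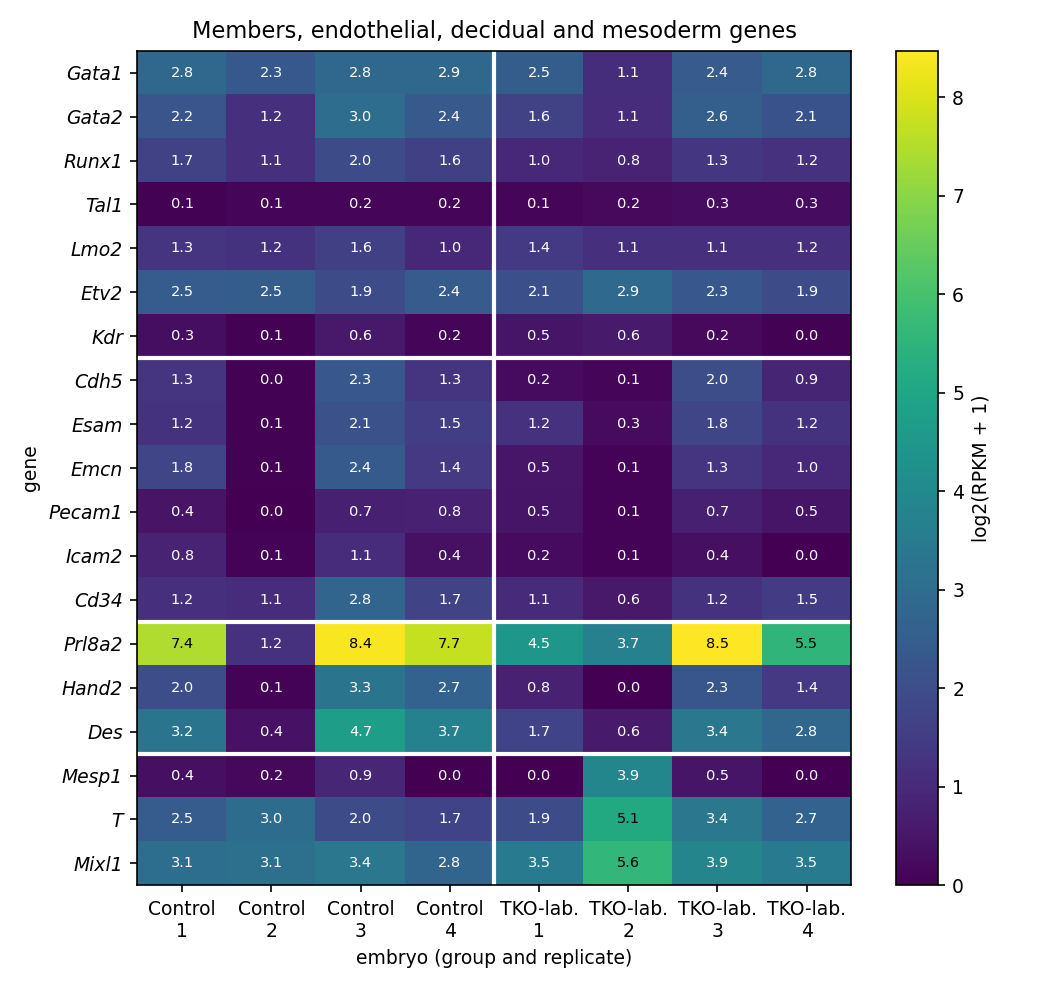
Log2(RPKM + 1) of members, endothelial genes, decidual genes and mesoderm genes (rows) in the 8 embryos (columns), with the value printed in each cell. Cdh5, Esam and Emcn are near 0 in Control 2 and TKO-labelled 2, and Mesp1 is high in TKO-labelled 2 alone.

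No embryonic globin RNA was listed in any embryo. Aligner and annotation are not stated, so absent RNA cannot be told from reads not assigned to these genes. Hba-x, the zeta-like chain, and Hbb-y and Hbb-bh1, the epsilon-like and gamma-like chains of primitive red cells, were listed at 0 in each of the 8 embryos, as were 2.21% of all genes in the table. At the estimated read totals, 1 read would appear as 0.0833 to 0.160 RPKM for Hbb-y and as 0.0860 to 0.165 RPKM for Hbb-bh1. All 83 ribosomal protein genes were above 0 in at least 1 embryo, and other genes that every cell uses were not checked. Of 6 adult globin symbols 0 were matched, and those genes are not analysed here, so red cells of the mother could not be followed by them. The 10 white blood cell genes summed to 2.80 to 36.3 RPKM in Control and 1.72 to 25.4 RPKM in TKO-labelled embryos. In the embryo with the highest sum of each group, S100a8 alone was at 26.8 and 18.7 RPKM. Ptprc, Ngp, Camp, Elane and Mpo did not exceed 0.246 RPKM in any embryo. The highest values of Lyz2, S100a9, Cd52 and Coro1a were 2.04 to 4.30 RPKM.

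The wider path was followed in 61 further genes, of which 60 were in the table and 26 were tested. None passed the adjusted threshold, 13 had positive and 13 negative differences, and the median was 0.05; of all tested genes 66.5% were positive. At an unadjusted p under 0.05 there were 7, against 17.5% of all genes. Among VEGF and angiopoietin genes (7 tested, 0 called), the ligand gene Vegfb was at 16.5 to 18.9 RPKM in Control and 10.5 to 16.4 RPKM in TKO-labelled embryos, with no overlap (log2 difference -0.40, limma adjusted p = 0.221). Of the 26 tested genes Vegfb alone had no overlap, against 9.41% of all tested genes. Eng, the co-receptor endoglin, ranged from 0.941 to 1.78 and from 0.777 to 1.38 RPKM (-0.24, limma adjusted p = 0.438). Vegfa, the main ligand of Kdr, ranged from 2.65 to 4.96 and from 3.00 to 4.56 RPKM.

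Among endothelial transcription factors (4 tested, 0 called), Sox7 and Sox17 had the smallest p-values, and both are also known in extraembryonic or definitive endoderm. Sox7 was at 1.21 to 4.64 RPKM in Control and 2.71 to 10.2 RPKM in TKO-labelled embryos (1.14, limma adjusted p = 0.182), and Sox17 at 4.27 to 7.62 and 6.25 to 10.8 RPKM (0.47, limma adjusted p = 0.245). Sox7 also stands in the parietal endoderm list, whose 8 genes all had positive differences, with 0 called. Among endothelial surface genes (6 tested, 0 called, 5 negative), Ramp2, a receptor-modifying protein, was at 8.97 to 12.003 and 11.4 to 15.9 RPKM (0.38, limma adjusted p = 0.209), and Cd34, of progenitors and vessels, at 1.10 to 5.74 and 0.510 to 1.75 RPKM (-0.59, limma adjusted p = 0.389).

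Blood transcription factors and cofactors had 7 genes tested and 0 called. Myb, of definitive progenitors, was at 2.50 to 4.11 RPKM in Control and 3.74 to 6.19 RPKM in TKO-labelled embryos (0.50, limma adjusted p = 0.203). Tcf3, the E-protein partner of Tal1, was at 9.67 to 15.0 and 7.66 to 9.91 RPKM (-0.39, limma adjusted p = 0.221). In the erythroid and progenitor list, with 2 tested and 0 called, Kit, the stem cell factor receptor, was at 0.464 to 1.37 and 0.525 to 3.39 RPKM (0.63, limma adjusted p = 0.286) and Tspan33 at 3.02 to 5.68 and 3.45 to 4.58 RPKM (0.11, limma adjusted p = 0.769). Of the 34 genes of these lists that missed the filter, 1 did not overlap between groups, against 2.89% of such genes. It was Itga2b, for CD41, an early marker of committed blood cells, singled out after its values were seen. Control embryos had 0.158, 0.117, 0.163 and 0.223 RPKM and TKO-labelled embryos 0, 0, 0.091 and 0.074 RPKM (exact permutation p = 0.0286, the smallest that 4 against 4 allow). These levels are as low as those of Tal1, and no read numbers were estimated for Itga2b.

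**Figure D4:**
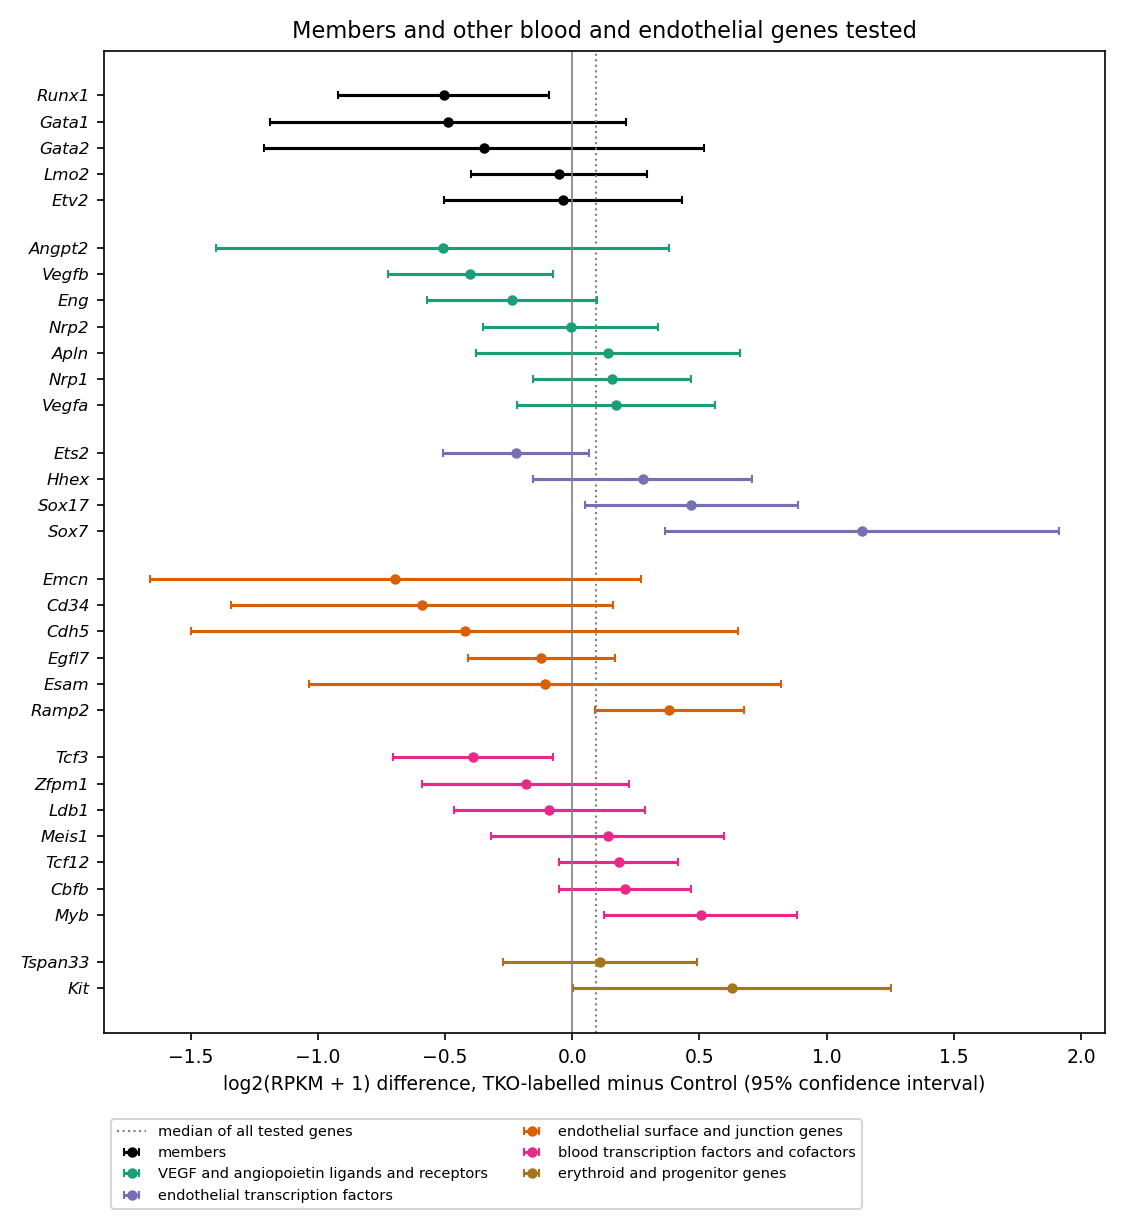
Difference in log2(RPKM + 1), TKO-labelled minus Control (horizontal axis), with 95% confidence intervals, for the 5 tested members and 26 other blood and endothelial genes grouped by list. Runx1 (-0.51) is the lowest member, Sox7 (1.14) the highest gene, and the dotted line is the median of all tested genes (0.09).

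Tissue lists gave the setting of these values, with 0 genes called in each; the 2 genes of smallest unadjusted p are named per list, and signs are to be read against the 66.5% of all tested genes that were positive. Nascent mesoderm genes had 5 of 7 tested differences positive, near that share, and named are Mixl1, at 5.77 to 9.37 and 10.2 to 48.3 RPKM, and Snai1, at 1.56 to 3.64 and 1.78 to 9.25 RPKM. Trophoblast genes had 6 of 8 negative, and named are Elf5, at 29.4 to 46.9 and 22.1 to 31.2 RPKM, and Tcfap2c, at 27.6 to 35.8 and 13.7 to 33.6 RPKM. All 6 tested decidua genes were lower on average in TKO-labelled embryos, with overlap in each, among them Hand2 (0.060 to 8.67 and 0 to 3.87 RPKM) and Prl3c1 (0.288 to 46.6 and 0.325 to 27.6 RPKM). The white blood cell genes S100a8 and S100a9 ranged from 0 to 26.8 RPKM and from 0 to 2.04 RPKM over the 8 embryos. Of visceral endoderm genes 5 of 7 were positive, again near that share, with Rbp4 at 22.7 to 52.9 and 47.8 to 74.7 RPKM and Apoa1 at 162 to 681 and 414 to 493 RPKM. For parietal endoderm, with differences of 1.14 to 2.30, the smallest p-values were those of Nid1 (4.69 to 8.83 and 9.52 to 39.2 RPKM) and Sparc (64.4 to 119 and 112 to 293 RPKM), and for epiblast, with 6 of 7 positive, those of Pou5f1 (10.8 to 19.0 and 15.3 to 57.3 RPKM) and Fgf5 (21.5 to 35.2 and 36.9 to 47.9 RPKM).

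The genes most like each tested member were taken by Pearson r of log2(RPKM + 1) over the 8 embryos among 10451 genes. They are a description, since the closest of so many genes is close by selection. For Gata2 they were Rab32 (r = 0.99), Gatm (0.99) and Kazald1 (0.99), each with rho 0.98, and r was 0.96 to 0.98 without the replicates 2 of both groups. Gatm, the first enzyme of creatine synthesis, was at 1.65 RPKM in Control replicate 2, 1.31 RPKM in TKO-labelled replicate 2 and 141 RPKM in Control replicate 3. For Runx1 they were Srd5a1 (0.98), a steroid reductase gene, S100a6 (0.96) and Atg16l2 (0.96). Efhd2 (0.96), Pim3 (0.96) and Mapk13 (0.95) were closest to Gata1, with r of 0.80, 0.87 and 0.51 without the replicates 2 of both groups. Closest to Etv2 were Twsg1 (0.97), for a secreted BMP modulator, Rnf168 (0.97) and Mboat2 (0.95). Lmo2 had Zfp362 (0.90) and Zfp473 (0.90) among its closest, with rho of 0.81 and 0.90.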

How the data were processed

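The authors deposited 1 table of RPKM values, holding a value for each gene symbol in each embryo; its name states the unit. The submitters' processing notes list HTSeq as a tool and mm9 as a build. No source used here states aligner, annotation, read total or use of strand, so a gene and an antisense partner cannot be told apart. All 8 columns matched a sample by its label, and replicate numbers come from the labels.

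Genes reaching 1 RPKM in 4 or more embryos were compared on the log2(RPKM + 1) scale by limma 3.58.1 (R 4.3.3), whose eBayes step let the variance follow the mean. Benjamini-Hochberg adjustment covered the 10451 genes so tested, with a threshold of 0.05. Log2 differences are TKO-labelled minus Control and understate changes of low genes. Single genes below the filter were compared by exact two-sided permutation over 70 assignments, for which 0.0286 is the smallest p. The procedure was tested on simulated data, in which every gene had the same spread. Spreads differed between genes here, so that test cannot show how the fit performs on these embryos. P-values judge a difference or relation against the spread between these embryos. The main fit treats the embryos as independent, and the labels give no litter, sex or sire. Read totals were estimated as the total at which low RPKM values of genes with 1 GENCODE M21 transcript came most often to whole reads, within 2%. The 47.3% to 55.7% of low values that came out at 1 to 10 whole reads do not recover counts, so no count test was run. Marker means are of log2(RPKM + 1).

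The members, lists and alternatives were chosen with earlier results of these data known. Named are the 10 members, the 2 genes of each of 12 lists with the smallest unadjusted p, and the 3 genes most like each tested member, of which 1 is not reported here; partners, targets and marker genes printed beside a member's values were named after their values were seen. The maternal red cell list of 6 adult globin genes had 0 genes in use and is not analysed here. Older symbols were matched through RefSeq synonyms. Alternatives were a pseudocount of 0.1, other filters, median-ratio scaling, a replicate block, a decidua covariate, and leaving out each embryo.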

Additional observations from a re-analysis of the deposited data

Results flagged for a closer look

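Of 68 groups of 4 embryos checked over 37 genes, 10 held an embryo far from the other 3; chance gives about 1 in 20. Among members, Gata1 was at 4.07 RPKM in Control replicate 2 (group median 6.08), Lmo2 at 1.70 RPKM in TKO-labelled replicate 1 (median 1.22), and Etv2 at 2.83 RPKM in Control replicate 3 (median 4.50). Control replicate 3 also had the highest decidua sum of the 8 embryos.

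Among other genes, Mixl1 was at 48.3 RPKM in TKO-labelled replicate 2, S100a8 at 18.7 RPKM and Prl3c1 at 27.6 RPKM in TKO-labelled replicate 3, Tspan33 at 5.68 RPKM, Rbp4 at 52.9 RPKM and Fgf5 at 21.5 RPKM in Control replicate 1, and Tet2 at 0.444 RPKM in Control replicate 2.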

How the results depend on the processing

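Under all 14 alternatives, 0 members and 0 of the other blood and endothelial genes passed the limma threshold in either direction. Across all genes, 1 was higher and 0 lower; with no filter, the replicate block or the decidua covariate 0 were higher, with the filter at 0.1 RPKM 3 were higher and 1 lower, and leaving out 1 embryo gave 0 to 29 higher and 0 to 7 lower, the most without TKO-labelled replicate 1. Of 422 values of 31 named genes under alternatives, 410 kept direction and side of the threshold, 9 changed sign and 3 newly passed. The log2 difference of Gata2 was 0.0031 with the decidua covariate, and -0.065 without Control replicate 3; without TKO-labelled replicate 2 it was -0.090 and without Control replicate 2 -0.69. For Lmo2 it was 0.064 without Control replicate 3 and as low as -0.15 without Control replicate 4. That of Etv2 was 0.010, 0.013 and 4.85e-05 without Control replicates 1, 2 and 4, and 0.042 and 0.082 without TKO-labelled replicates 1 and 4, and -0.23 without TKO-labelled replicate 2. For Kdr it was -0.012 without Control replicate 2, -0.026 without TKO-labelled replicate 2 and 0.17 without Control replicate 3. Without TKO-labelled replicate 1, Tal1 newly passed by exact permutation, and Nid1 (2.00) and Sparc (1.45) by limma. For Tal1 it was the only TKO-labelled embryo inside the Control range, so leaving it out gives the smallest p. The cause was not tested. Runx1 ranged from -0.79 to -0.36 and Gata1 from -0.69 to -0.12. Same-numbered embryos deviated together in 2 of 4 pairs (r -0.02 to 0.40). Those 2 values, 0.40 and 0.26, were the highest r of any Control and TKO-labelled pair. Such correlations cannot decide whether the numbers pair the embryos. With the replicate block the unadjusted limma p was 0.00549 for Runx1, 0.0341 for Gata1 and 0.0368 for Gata2. Their adjusted p were 0.157, 0.242 and 0.245. For Etv2 and Lmo2 the unadjusted limma p was 0.850 and 0.751. Tal1 rested on at most 17.1 estimated reads in any embryo, and on under 10 in every Control embryo and TKO-labelled replicate 1. Kdr rested on under 10 in 3 embryos, so depth limits both genes.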
